A study of Mus musculus with 9 samples.

Results

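Mmp13, a collagenase of bone, was examined together with 6 other matrix metalloproteinase genes and 3 genes for their inhibitors. The 10 genes were taken by name (Mmp2, Mmp3, Mmp8, Mmp9, Mmp13, Mmp14, Mmp16, Timp1, Timp2 and Timp3), out of 18194 genes measured. They were covered by 25 probe sets that named only that gene, and each gene was represented by its brightest probe set over the 9 arrays. RNA came from osteocyte-enriched shafts of tibiae of wild type CD1 mice, 16 to 18 weeks old, in 3 groups of 3 arrays. The virgin group held age-matched mice that had not bred. The lactation group was taken on day 12 of lactation, with litters set to 8 to 13 pups. The post-lactation group had its pups removed on day 12 of lactation and was taken 7 days later. No group carried a transgene, a deletion or a drug.

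The shafts had periosteum and marrow removed and were digested repeatedly with collagenase and trypsin, with an EDTA step, to strip cells from the surfaces. A passage of the extraction protocol names femurs, while the remaining labels name tibiae. Groups were taken from the titles, because the source label of the arrays titled post-lactation says virgin. The labels do not say whether each array was a separate mouse or a pool, and the p-values therefore describe only the scatter among the samples at hand, which may be technical.

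Matrix metalloproteinases are zinc enzymes that cut collagens and other proteins of the extracellular matrix. They are made as inactive proenzymes, and removal of the propeptide frees the active site. Tissue inhibitors of metalloproteinases, the TIMPs, bind that active site and block it. In mouse bone Mmp13 is made by osteoblasts, osteocytes and hypertrophic cartilage cells and is induced by parathyroid hormone through RUNX2 and AP-1 factors. The question of the study, as its title and design state it, was which osteocyte genes act in remodelling of the matrix around the cells during and after lactation.

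Mmp13, Mmp3 and Mmp8 lie in the metalloproteinase gene cluster of chromosome 9 (RefSeq positions, build GRCm38.p6). Mmp13 spans 7272514 to 7283333, Mmp3 7445822 to 7455975 and Mmp8 7558429 to 7568486. Of 9 genes of this cluster with a probe set, only Mmp13 and Mmp8 had any group mean above the dim level, set at 4.87 on the log2 scale, the 40th percentile of gene means. The 7 genes below it in all groups were Mmp12, Mmp1b, Mmp3, Mmp1a, Mmp10, Mmp20 and Mmp7. Timp1 lies on chromosome X from 20870166 to 20874737. The others lie on chromosomes 8 (Mmp2, 92827290 to 92853421), 2 (Mmp9, 164940326 to 164955850), 14 (Mmp14, 54431598 to 54442456), 4 (Mmp16, 17853072 to 18117479), 11 (Timp2, 118301061 to 118355411) and 10 (Timp3, 86300412 to 86349505).

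RefSeq promoter sequence was held for 7 of the 10 genes. The 250 bases before the start site are shown for Mmp13 and Timp1, since Timp1 was the gene whose profile lay nearest to that of Mmp13, and for Mmp3, a cluster neighbour of Mmp13 with little signal. Capitals mark exact matches, on either strand, to the AP-1 motif TGANTCA or the RUNX motif AACCACA, which do not overlap each other. The stretches are chr9:7272264-7272513, chrX:20869916-20870165 and chr9:7445572-7445821, all on the plus strand of GRCm38.p6.
Mmp13: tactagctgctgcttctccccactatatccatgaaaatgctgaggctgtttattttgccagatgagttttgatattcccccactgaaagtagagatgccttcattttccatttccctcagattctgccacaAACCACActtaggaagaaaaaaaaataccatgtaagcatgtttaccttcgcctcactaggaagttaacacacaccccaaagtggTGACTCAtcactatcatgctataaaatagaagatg
Timp1: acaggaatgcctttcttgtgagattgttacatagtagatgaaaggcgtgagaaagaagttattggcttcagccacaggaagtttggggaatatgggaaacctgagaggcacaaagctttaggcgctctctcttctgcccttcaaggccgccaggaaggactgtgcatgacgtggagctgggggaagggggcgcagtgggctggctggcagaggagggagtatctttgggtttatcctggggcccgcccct
Mmp3: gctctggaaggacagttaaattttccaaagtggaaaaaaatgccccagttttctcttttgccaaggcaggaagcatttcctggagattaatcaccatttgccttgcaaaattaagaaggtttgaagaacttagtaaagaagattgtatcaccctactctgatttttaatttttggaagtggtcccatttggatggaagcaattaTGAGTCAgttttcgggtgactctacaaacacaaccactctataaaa
The Mmp13 stretch held 1 AP-1 match, with its first base at position -35 from the start, and 1 RUNX match at position -119. The Mmp3 stretch held 1 AP-1 match at position -46 and no RUNX match. In the Timp1 stretch, and in those of Mmp8, Mmp14, Timp2 and Timp3, neither motif was found. Among 32851 promoters of the same length, 2217 (6.75%) held the AP-1 motif and 1444 (4.40%) the RUNX motif. A match is a string of letters in this window and says nothing of binding.

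Exactly equal values tied the arrays into 3 sets, and every set had an array from all 3 groups. Virgin 1, post-lactation 1 and lactation 3 made up set 1. Set 2 comprised lactation 2, virgin 2 and post-lactation 3, and set 3 comprised post-lactation 2, lactation 1 and virgin 3. Between 2.50% and 44.1% of probe sets were exactly equal in pairs within a set, against at most 0.00443% between sets. Median log2 values were 4.32 to 4.34 for the arrays of set 1, 4.57 for set 3 and 4.80 to 4.82 for set 2. Osteocyte genes were bright (Dmp1 11.90 to 14.08, Phex 9.02 to 11.94 on the log2 scale) and skeletal muscle markers were low (Acta1 4.14 to 4.75, Ckm 4.71 to 5.23). The neutrophil genes Camp (13.73 to 14.39) and Ngp (13.92 to 14.45) were also bright on every array. Virgin 1 stood apart: its Sost value, an osteocyte gene, was 8.14 against 13.39 and 13.55 on the other virgin arrays. In bulk RNA of this kind, fewer cells of a type and less RNA per cell cannot be told apart.

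Between virgin and lactating mice, Mmp13, Timp1, Mmp16 and Mmp9 were higher in lactation in all 3 array sets, and Timp3 was lower in all 3. None of the 10 differences passed the test. limma with Benjamini-Hochberg adjustment over all genes called 0 of 10 members and 0.0% of all 18194 genes, and 2 members and 328 genes had an unadjusted p under 0.05 (4 and 1457 under the set block). With a block for the array set in the fit, 0 members and 0.022% of genes were called. Groups did not overlap, with lactation higher, for 3 members (Mmp9, Mmp16, Timp1) and 2.06% of genes, and did not overlap with lactation lower for 0 members and 0.698% of genes. Members higher in all 3 sets numbered 4, against 10.4% of genes, and 1 was lower in all 3, against 6.11%. A gene with equal values in a set cannot count in these shares, nor as having groups that do not overlap. Virgin and lactation arrays were exactly equal for 2.72%, 41.7% and 44.1% of probe sets in sets 1, 2 and 3. Such ties lower the shares over all genes, so these shares cannot show an excess among the members. The median difference of the 10 genes was 0.25 (0.54, 0.19 and 0.18 within sets 1, 2 and 3), against 0.01 over all genes. Ties also draw the all-gene median toward 0, so this contrast cannot show an excess either.

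Between lactation and 7 days after weaning, Timp1 and Mmp13 were lower by the widest margins, Mmp16 was also lower in all 3 sets, and Mmp8, Timp3 and Mmp2 were higher in all 3. The dimmer Mmp2 probe set was lower in set 1 (-0.12). The fit without a block called 0 of 10 members and 0.709% of genes. With the set block it called 2, Mmp13 and Timp1, both lower, and 3.53% of genes. Unadjusted p fell under 0.05 for 3 members and 921 genes without the block, and for 5 members and 2740 genes with it. Non-overlapping groups were found for 1 member higher (Mmp8, against 3.26% of genes) and 1 lower (Timp1, against 4.38%). In all 3 sets 3 members were higher, against 12.8% of genes, and 3 lower, against 16.1%. Ties lower the all-gene shares for overlap and for all 3 sets here in the same way. The median difference of the 10 genes was -0.02 and that of all genes 0.00. This comparison shares the lactation arrays with the previous comparison, so a high lactation value moves both.

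After weaning compared with virgin mice, Mmp9 was higher in all 3 sets. Mmp2 was higher in sets 1 and 2 (0.51 and 0.68) and tied in set 3 (0.00). The remaining members showed mixed signs or small differences. No member was called, without the set block (0.176% of all genes called) or with it (0.451%), and an unadjusted p under 0.05 was reached by 0 members and 381 genes, or by 2 members and 1476 genes with the block. Mmp9 was the 1 member with non-overlapping groups in the higher direction (1.17% of genes), and 0 did so in the lower direction (1.49%). It was also the 1 member higher in all 3 sets (5.91%), with 0 lower in all 3 (8.15%). The all-gene shares for overlap and for all 3 sets are lowered by ties in this comparison too. The median difference of the 10 genes was 0.21 (0.07, 0.19 and 0.00 within sets 1, 2 and 3).

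**Figure D1:**
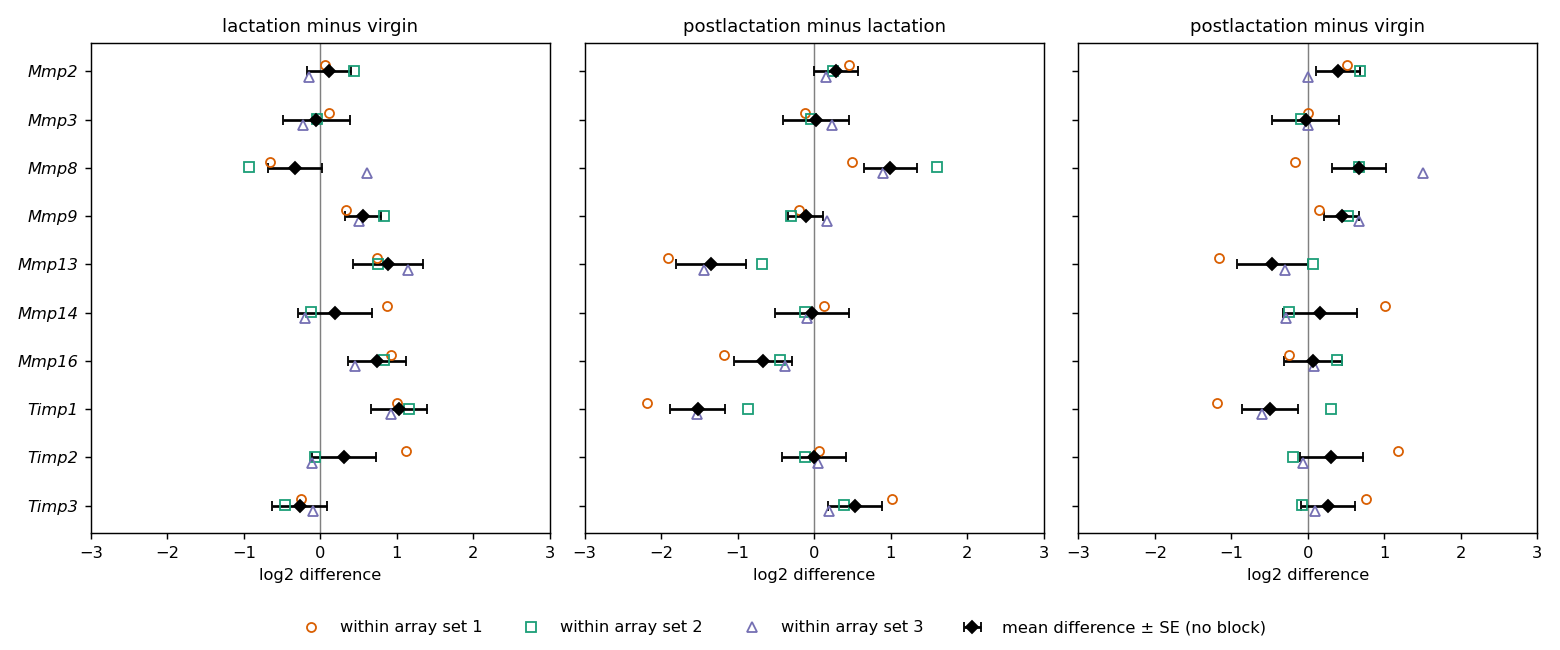
Log2 differences of the 10 genes in the 3 comparisons, as the mean (diamonds) with the standard error of the fit without a block, and the value within each array set (open symbols). Mmp13 and Timp1 lie below 0 in all 3 sets for post-lactation minus lactation (-1.35 and -1.52), and Mmp9 lies above 0 in all 3 sets in both comparisons with virgin mice.

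The collagenases cut fibrillar collagen. Mmp13 had log2 values of 11.68, 12.51 and 12.13 in virgin mice, 13.28, 13.27 and 12.42 in lactation and 10.51, 11.84 and 12.58 after weaning. The lactation values were above the virgin ones except lactation 3, which lay below virgin 2, and post-lactation 3 lay above lactation 3. Group means were 12.11 ± 0.42, 12.99 ± 0.49 and 11.64 ± 1.05 (SD, n = 3), so the post-lactation arrays were the most scattered. Within sets 1, 2 and 3 lactation exceeded virgin by 0.74, 0.75 and 1.15, and the mean difference was 0.67 without virgin 1. Over all arrays it was 0.88 (1.84-fold, SE 0.46, adjusted p = 1; 0.361 with the set block). After weaning the difference from lactation was -1.91, -0.68 and -1.44 in the sets, with a mean of -1.35 (2.54-fold lower, SE 0.46, adjusted p = 0.545; with the block SE 0.25 and adjusted p = 0.0467). That call is lost without any of 8 of the 9 arrays (adjusted p 0.0530 to 0.271) and is kept only without post-lactation 3 (adjusted p = 0.0354). Without array set 1 the difference was -1.06 (adjusted p = 0.275), and without post-lactation 1 and the block it was -0.78. Against virgin mice, post-lactation Mmp13 differed by -0.46 (SE 0.46, adjusted p = 1), with -1.17, 0.07 and -0.29 in the sets. Mmp13 is a gene this study is known to have reported, so its direction here is not independent evidence. Cell markers also differed between virgin and lactating mice: 12 of 15 osteocyte genes (median 0.22), 8 of 8 osteoblast genes (median 0.40), 12 of 13 osteoclast genes (median 0.93) and 12 of 12 red cell genes (median 1.22) had a higher mean, with 0, 0, 8 and 11 genes at an unadjusted p under 0.05 and 0 called without the set block. The osteocyte and osteoblast differences lay mainly in set 1, that of virgin 1: their medians in sets 1, 2 and 3 were 1.08, -0.21 and -0.16 for osteocyte genes and 1.11, 0.19 and -0.15 for osteoblast genes. Those of osteoclast genes (0.88, 0.99 and 0.74) and red cell genes (1.07, 0.86 and 1.54) were above 0 in every set. The part of these cells in the Mmp13 difference was not tested.

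Mmp8 is the collagenase that neutrophils store in their granules. Its values were 10.43, 9.78 and 8.98 in virgin mice, 9.58, 8.85 and 9.77 in lactation and 10.26, 10.48 and 10.45 after weaning. All 3 post-lactation arrays exceeded every lactation array, and the virgin arrays spanned both groups. The means were 9.73 ± 0.73, 9.40 ± 0.49 and 10.40 ± 0.12. After weaning Mmp8 was 1.00 higher than in lactation (2.00-fold, SE 0.35, adjusted p = 0.580; 0.252 with the set block), with 0.49, 1.60 and 0.90 in the sets. Lactation minus virgin was -0.33 (SE 0.35), and its sign differed between sets (-0.66, -0.93 and 0.61). Post-lactation minus virgin was 0.67 (SE 0.35, adjusted p = 1), with -0.17, 0.67 and 1.51 in the sets, and it was 0.30 without virgin 3 and 1.02 without virgin 1. Neutrophil markers were set beside it. Their mean level above the array median, over 16 measured genes that do not include Mmp8, was 7.63, 6.78 and 6.56 in virgin mice, 6.67, 6.20 and 7.05 in lactation and 7.05, 6.87 and 6.93 after weaning. Set on the same scale, above the array median, Mmp8 was highest on virgin 1 (6.11) and lowest on lactation 2 (4.03), the arrays with the highest and the lowest neutrophil level. The order of the arrays was not the same throughout: lactation 3 had a higher neutrophil level than post-lactation 2 and 3, but less Mmp8 (5.45 against 5.91 and 5.65). In set 1 the neutrophil level was 7.05 on both lactation 3 and post-lactation 1, where Mmp8 was 5.45 and 5.92. Virgin and post-lactation mice had like neutrophil means (6.99 and 6.95), while Mmp8 differed by 0.67. Virgin 1 was the highest virgin array for both, and without it Mmp8 differed by 1.02. Within sets 1, 2 and 3 the median marker difference of post-lactation minus virgin was -0.45, 0.24 and 0.23. That of Mmp8 was -0.17, 0.67 and 1.51. From lactation to post-lactation 11 of 16 of these markers were higher (median 0.31, and 0.17, 0.68 and 0.25 within sets), 9 in all 3 sets, while 4 were lower in all 3. At the same step 11 of 11 B lymphocyte markers were higher in all 3 sets (median 1.43, 0 called without and 2 with the set block), and 7 of 7 marrow stroma and adipocyte markers had a higher mean (median 0.73, 0 called), 4 of them in all 3 sets. The part of these cells in the Mmp8 difference was not tested.

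**Figure D2:**
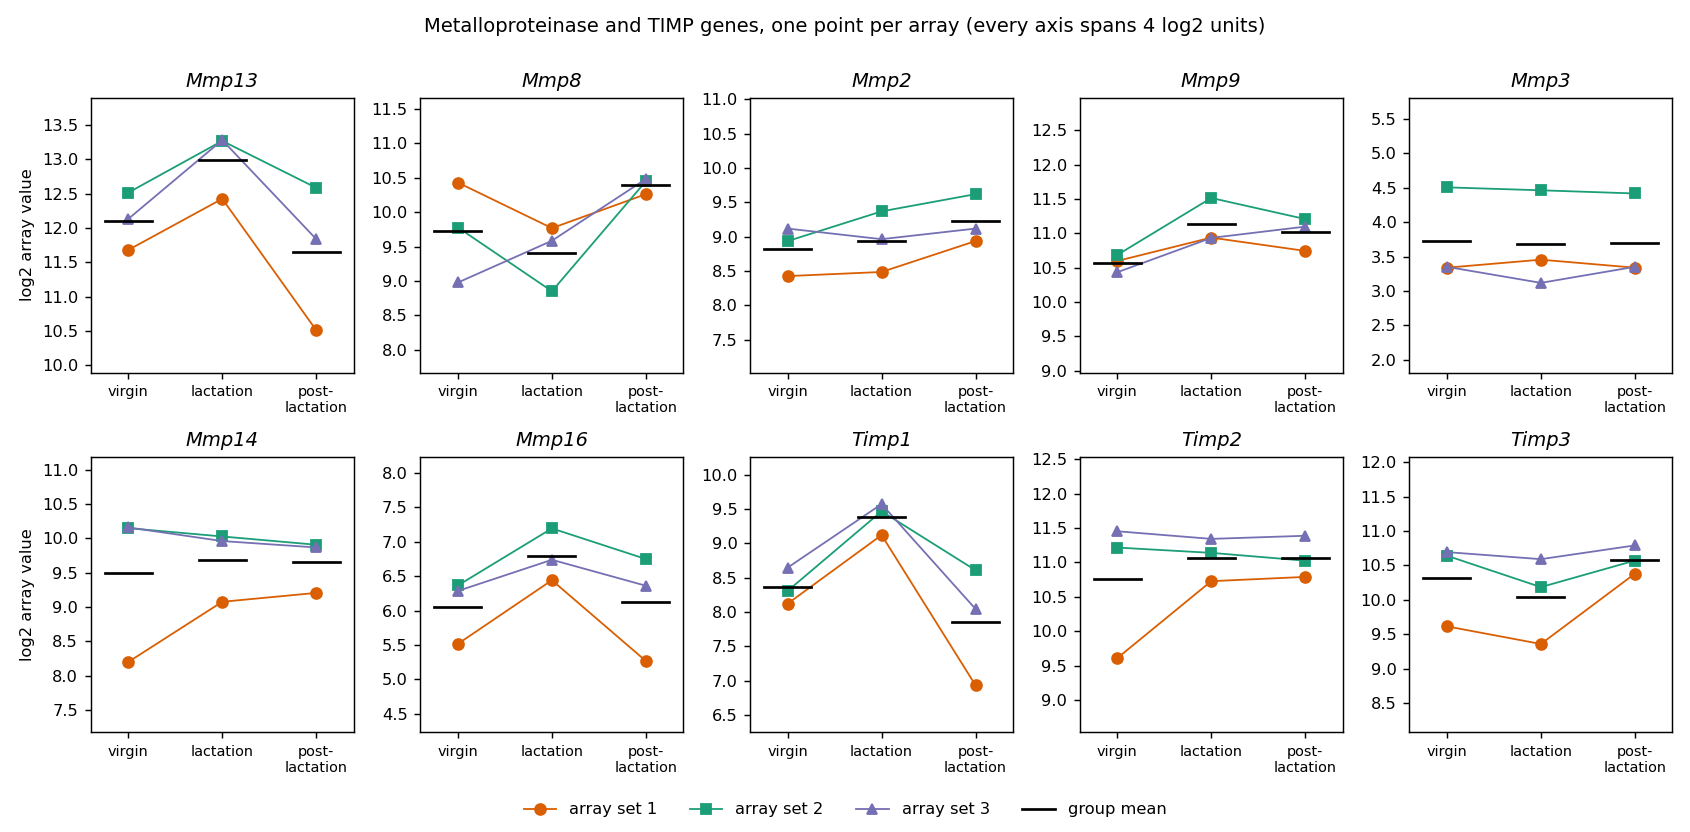
Log2 value of each of the 10 genes on each of the 9 arrays, by group, coloured and joined by array set, with a bar for the group mean; every vertical axis spans 4 log2 units. Mmp13 and Timp1 run highest in lactation (means 12.99 and 9.38), whereas Mmp8 is highest after weaning (10.40).

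The gelatinases cut denatured collagen. Mmp9, made by osteoclasts and stored by neutrophils, had values of 10.60, 10.69 and 10.43 in virgin mice, 10.93, 11.51 and 10.94 in lactation and 10.74, 11.10 and 11.21 after weaning. No virgin array reached the lowest array of either other group on this probe set, the brighter one of the gene. Means were 10.57 ± 0.13, 11.13 ± 0.33 and 11.02 ± 0.24. Lactation exceeded virgin by 0.56 (1.47-fold, SE 0.23, adjusted p = 1; 0.242 with the set block), with 0.34, 0.83 and 0.50 in the sets, and by 0.36 without lactation 2. The excess of post-lactation over virgin was 0.44 (1.36-fold, SE 0.23, adjusted p = 1; 0.393 with the set block), with 0.15, 0.52 and 0.66. Post-lactation and lactation differed by -0.11 (SE 0.23, adjusted p = 1), with -0.19, -0.31 and 0.16. Both Mmp9 probe sets were higher in lactation (0.37 and 0.56) and after weaning (0.44 and 0.47) than in virgin mice. On the dimmer one the groups overlapped: virgin 1 (10.36) exceeded lactation 1 (9.81) and post-lactation 2 (10.28). Its post-lactation minus lactation difference was 0.10, against -0.11 for the brighter one. Osteoclast markers were at 2.65 to 2.80 above the array median in virgin mice, 3.50 to 3.84 in lactation and 2.47 to 2.94 after weaning. The post-lactation range overlapped the virgin range for these markers and for the dimmer Mmp9 probe set, but not for the brighter one. That contrast was not tested. Several of these markers, such as Acp5 and Ctsk, were themselves reported by this study, and the calcitonin receptor gene Calcr was below the dim level on every array (2.93 to 4.78). Mmp2 ranged from 8.43 to 9.12 in virgin mice, 8.49 to 9.37 in lactation and 8.94 to 9.62 after weaning. Its differences were 0.11 (lactation minus virgin), 0.28 (post-lactation minus lactation) and 0.40 (post-lactation minus virgin), each with SE 0.29 and adjusted p = 1. Post-lactation minus lactation was 0.45, 0.25 and 0.15 in the sets. Post-lactation minus virgin was 0.51, 0.68 and 0.00, the last a tie. On the dimmer of the 2 Mmp2 probe sets, post-lactation minus lactation was 0.07, with -0.12, 0.17 and 0.17 in the sets.

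**Figure D3:**
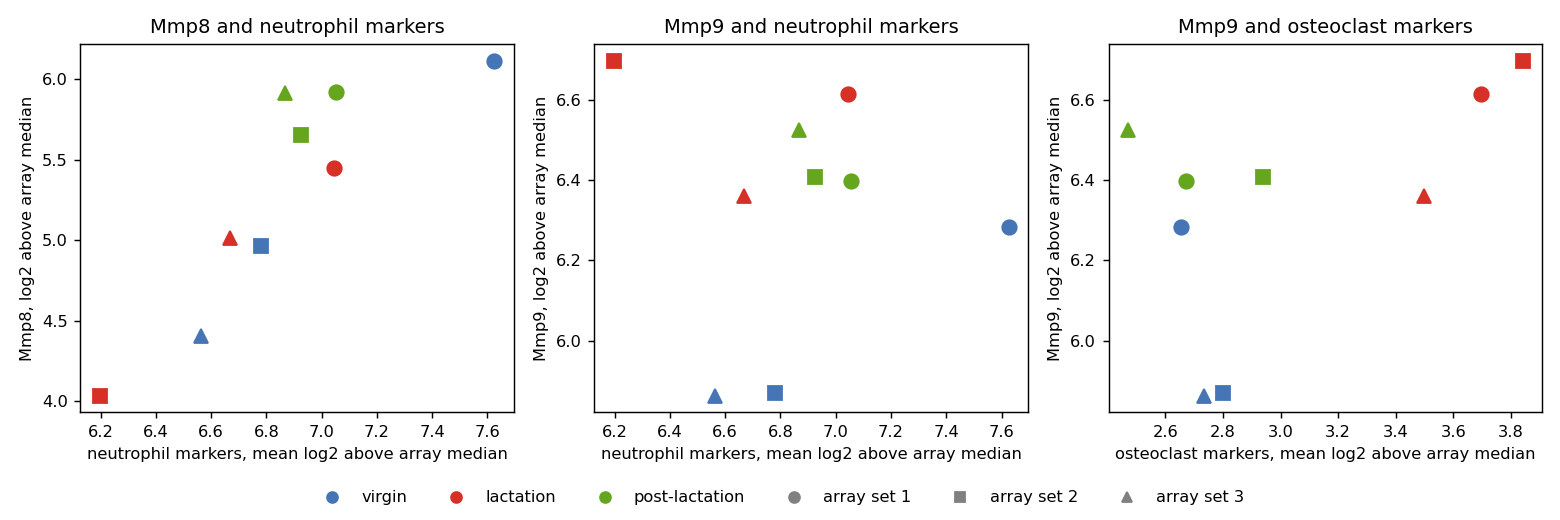
Log2 level of Mmp8 or Mmp9 above the array median (vertical axes) against the mean level of neutrophil or osteoclast markers above the array median (horizontal axes), 1 point per array, coloured by group and shaped by array set. In the Mmp8 panel lactation 2 is lowest on both axes and virgin 1 highest on both, while the 3 lactation arrays lie apart on the osteoclast axis (3.50 to 3.84).

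The stromelysin Mmp3, which cuts proteoglycans and can activate procollagenases, was below the dim level on every array. It was 3.34, 4.51 and 3.35 in virgin mice, 3.12, 4.46 and 3.45 in lactation, and 3.34, 3.35 and 4.42 after weaning. The higher value in each group was the array of set 2, and no difference is given for a gene at this level.

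The membrane-type metalloproteinases are anchored at the cell surface. Mmp14, which activates pro-Mmp2 with Timp2 as a bridge, was 8.20, 10.15 and 10.16 in virgin mice, 9.96, 10.03 and 9.08 in lactation, and 9.21, 9.87 and 9.91 after weaning. Virgin 1 was the lowest array, followed by lactation 3 and post-lactation 1, the other arrays of set 1, and the groups overlapped. Lactation minus virgin was 0.19 (SE 0.48, adjusted p = 1) and came from set 1 (0.88 against -0.12 and -0.20). Without set 1 it was -0.16, and without virgin 1 alone -0.47. Post-lactation minus virgin was 0.16 and had the same split (1.00, -0.24 and -0.29), and post-lactation minus lactation was -0.03 (SE 0.48 each, adjusted p = 1). Mmp16, a membrane-type enzyme related to Mmp14, was 5.52, 6.37 and 6.29 in virgin mice, 6.74, 7.20 and 6.44 in lactation and 5.27, 6.36 and 6.75 after weaning. Every lactation array exceeded every virgin array. The difference was 0.74 (1.67-fold, SE 0.38, adjusted p = 1; 0.234 with the set block), and it was 0.93, 0.83 and 0.45 in the sets. Without virgin 1 it was 0.47, and as the mean of the probe sets 0.30. Post-lactation Mmp16 differed from lactation by -0.67 (1.59-fold lower, SE 0.38, adjusted p = 1; 0.116 with the set block), and post-lactation 3 exceeded 2 of the lactation arrays. Without post-lactation 1 it was -0.24, without post-lactation 3 -0.98, and as the mean of the probe sets -0.29. Post-lactation minus virgin was 0.07 (SE 0.38, adjusted p = 1). All 4 Mmp16 probe sets had a higher mean in lactation than in virgin mice (0.11 to 0.74) and a lower mean after weaning than in lactation (-0.67 to -0.09). Of the 4, 1 was below the dim level, and it differed in set 1 only. The other 2 probe sets not used were lower in lactation than in virgin mice in set 1 (-0.45 and -0.44). After weaning, 1 of these was higher than in lactation in set 1 (0.23).

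Among the inhibitors, Timp1, a soluble inhibitor of most secreted metalloproteinases, had the widest differences. It was 8.12, 8.31 and 8.65 in virgin mice, 9.57, 9.47 and 9.12 in lactation and 6.93, 8.04 and 8.61 after weaning. Every lactation array exceeded every array of both other groups. Means were 8.36 ± 0.27, 9.38 ± 0.24 and 7.86 ± 0.85. Lactation exceeded virgin by 1.03 (2.04-fold, SE 0.36, adjusted p = 1; 0.316 with the set block), with 1.00, 1.16 and 0.92 in the sets, and by 0.91 without virgin 1. After weaning the difference from lactation was -1.52 (2.87-fold lower, SE 0.36, adjusted p = 0.145; with the block SE 0.28 and adjusted p = 0.0418), with -2.19, -0.86 and -1.53 in the sets. With the set block the call is lost without any of the 8 arrays other than post-lactation 3 (adjusted p 0.0591 to 0.252). Without array set 1 it was -1.19 (adjusted p = 0.306). Without post-lactation 3 the difference was -1.90 and passed without the block also (adjusted p = 0.0344). Subtracting each array's median gave -1.53 and an adjusted p of 0.0492. Against virgin mice, post-lactation Timp1 differed by -0.50 (SE 0.36, adjusted p = 1), with -1.19, 0.30 and -0.60. Markers of red blood cells fell at the same step: their mean level above the array median was 4.24 to 4.67 in lactation and 0.08 to 0.71 after weaning, with 11 of 12 called lower. The medians of the B lymphocyte markers (1.43) and of the marrow stroma and adipocyte markers (0.73) lay above 0 at this step. The part of these cells in the Mmp13 and Timp1 differences was not tested.

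Timp2, which both inhibits metalloproteinases and takes part in pro-Mmp2 activation, was 9.61, 11.22 and 11.45 in virgin mice, 11.34, 11.14 and 10.73 in lactation, and 10.79, 11.39 and 11.03 after weaning. Virgin 1 was again lowest. Lactation minus virgin was 0.31 (SE 0.42, adjusted p = 1), with 1.12 in set 1 and -0.08 and -0.11 in sets 2 and 3, and it was -0.09 without set 1 and -0.27 without virgin 1. Post-lactation minus virgin was also 0.31, with 1.18, -0.19 and -0.07 in the sets. Timp3, the inhibitor that binds the matrix, was 9.61, 10.64 and 10.69 in virgin mice, 10.59, 10.19 and 9.36 in lactation and 10.38, 10.79 and 10.57 after weaning. The groups overlapped. Timp3 was lower in lactation by 0.26, 0.46 and 0.10 in the sets, with a mean difference of -0.27 (SE 0.36, adjusted p = 1). It was higher after weaning than in lactation by 1.02, 0.39 and 0.20, with a mean difference of 0.54 (1.45-fold, SE 0.36, adjusted p = 1; 0.231 with the set block). Without lactation 3 this was 0.19, and without lactation 1 it was 0.81. Post-lactation minus virgin was 0.26 (SE 0.36, adjusted p = 1), with 0.77, -0.07 and 0.10 in the sets. All 4 Timp3 probe sets had a lower mean in lactation than in virgin mice (-0.35 to -0.17) and a higher mean after weaning than in lactation (0.36 to 0.54). The dimmest of them did not keep its sign in every set. It differed by -0.94, 0.09 and 0.23 in the first comparison, and by 1.13, 0.20 and -0.03 in the second.

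**Figure D4:**
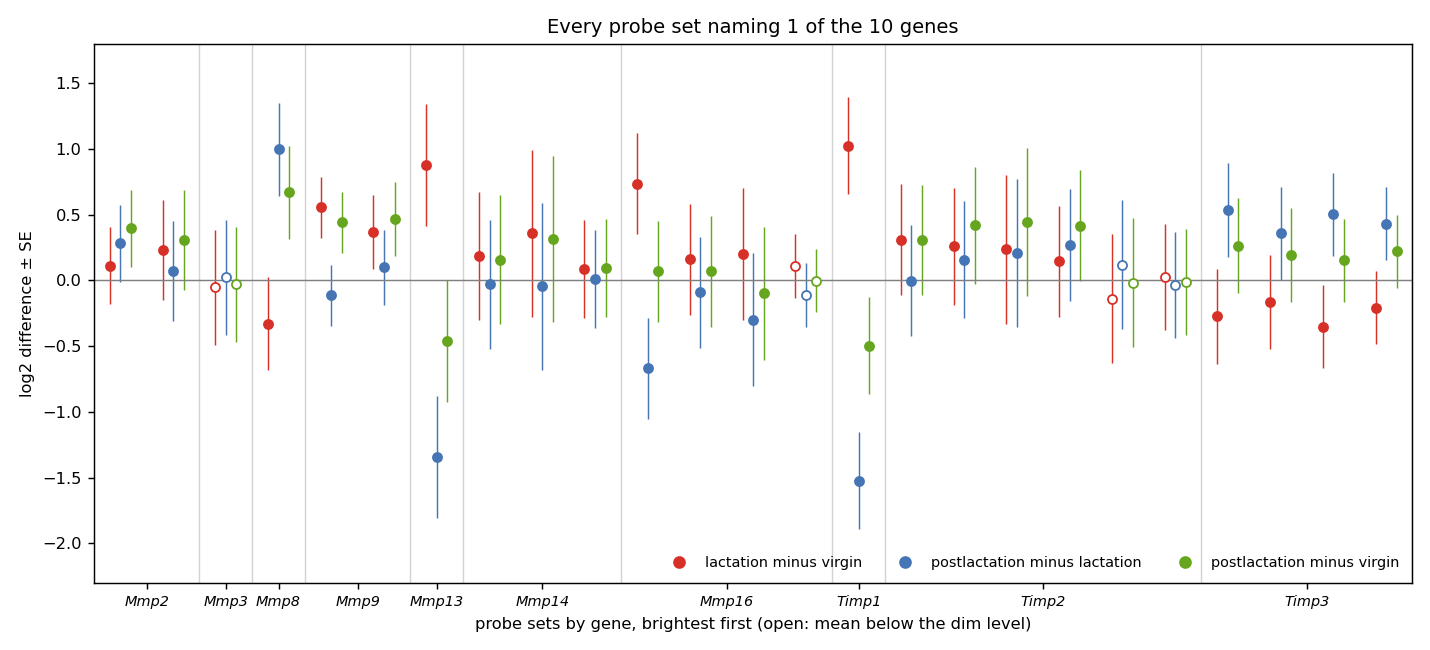
Log2 differences with their standard errors for all 25 probe sets of the 10 genes in the 3 comparisons; open symbols mark probe sets with a mean below the dim level. The 4 probe sets of Mmp16 and the 4 of Timp3 each share the sign of their mean difference within lactation minus virgin and within post-lactation minus lactation. Their signs within single array sets are not shown.

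Likeness of pattern was measured as the root mean square (RMS) distance between 2 genes' values after each array set was centred for each gene, over 9 arrays and 10916 genes above the dim level. Timp1 was the gene nearest to Mmp13 (RMS distance 0.14), followed by Nmb (0.16), Pla2g12a (0.18), Trim59 (0.20) and Tfr2 (0.21), a transferrin receptor of red cell precursors and liver. The spread of Mmp13 itself was 0.61 and the median distance 0.62. Mmp16 was the 208th nearest to Mmp13 (0.35), and Mmp8 was among the least alike (rank 10750, distance 0.98). The difference Mmp13 minus Timp1 within arrays was 3.75 ± 0.40, 3.60 ± 0.26 and 3.78 ± 0.20 in virgin, lactating and post-lactation mice (SD, n = 3). Timp1 was found as the gene nearest to Mmp13 on these same arrays, so this near-constant difference restates that choice. Mmp9 minus Timp1 was 2.22 ± 0.37, 1.74 ± 0.35 and 3.16 ± 0.61. These are differences between probes on the log2 scale, so only their change between groups, not their size, can be read. For Mmp8 the nearest were C130026I21Rik, Wfdc21 and Cd3d (0.15 each), followed by Sorl1 and Plbd1 (0.18 each). For Mmp9 they were Cd84 (0.11), Taf15 (0.13), Tceal9 (0.14) and the proton pump genes Atp6v0e and Atp6v1b2 (0.15 each), and for Mmp14 Med12l (0.05), Dst, Adcy9, Tjp1 and Nckap1 (0.06 each). Timp1 was not near Mmp8 or Mmp9 (distances 1.09 and 0.65). Timp2 was 25th nearest to Mmp14 (0.08), and virgin 1 was the lowest array of both.

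**Figure D5:**
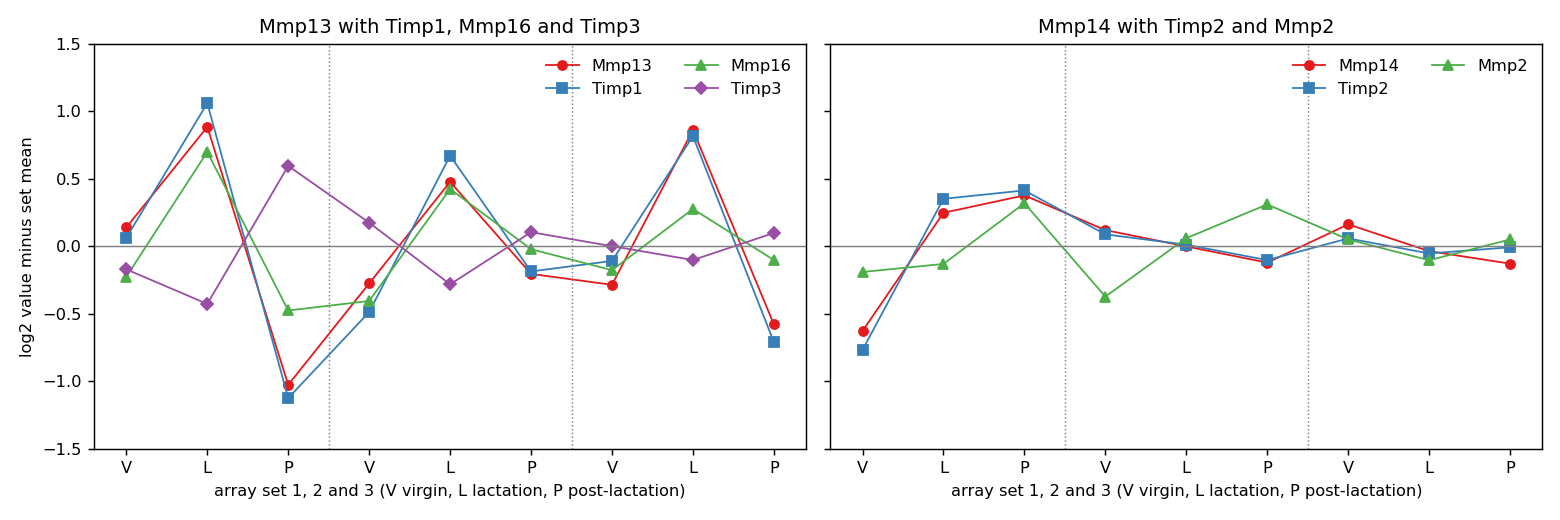
Log2 values minus the mean of the array set (vertical axis) on the 9 arrays ordered by set and group, for Mmp13, Timp1, Mmp16 and Timp3 (left) and for Mmp14, Timp2 and Mmp2 (right). Mmp13 and Timp1 lie close together (RMS distance 0.14) and are highest in lactation in every set, and Mmp14 and Timp2 share a low virgin array in set 1.

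Other genes of the pathway were counted by role, in the order lactation minus virgin, post-lactation minus lactation, post-lactation minus virgin. Of 12 other MMP and TIMP genes measured, 8 were below the dim level in all groups, and Mmp11, Mmp17, Mmp23 and Mmp24 were above it. None was called with or without the set block, and 0, 0 and 1 had an unadjusted p under 0.05. Mmp23 was 0.54 higher in lactation than in virgin mice with no overlap (SE 0.30, adjusted p = 1), although its difference was 1.06 in set 1 and 0.03 in set 3.

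Among 21 activators, binding partners and other inhibitors, 10, 16 and 12 were higher, with medians of -0.03, 0.13 and 0.14. Without the set block 0 were called, and 1, 2 and 1 had an unadjusted p under 0.05. Reck, a membrane-anchored inhibitor of metalloproteinases, had means of 7.37 ± 0.30 in virgin mice, 6.82 ± 0.29 in lactation and 7.31 ± 0.11 after weaning. It was lower in lactation than in virgin mice by similar amounts in the sets (-0.66, -0.44 and -0.57), with a mean difference of -0.56 (SE 0.23, adjusted p = 1; 0.149 with the set block). After weaning it was 0.49 above lactation (SE 0.23, adjusted p = 1; 0.0621 with the set block). Its group mean was lowest in lactation, where that of Timp1 was highest. Bsg encodes basigin, an inducer of metalloproteinases that is also a red cell surface protein. It went from 10.04 ± 0.38 in lactation to 8.99 ± 0.46 after weaning, a difference of -1.05 (2.07-fold lower, SE 0.33, adjusted p = 0.401; 0.0021 with the set block), with -1.15, -0.95 and -1.05 in the sets. Lcn2, a neutrophil granule protein that binds Mmp9, was 0.62 higher after weaning than in lactation (SE 0.21, adjusted p = 0.555; 0.106 with the set block). Plau, the urokinase that activates plasminogen, was 0.55 higher in the same comparison, but 1.28 in set 1 against 0.22 and 0.16 in the others.

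The transcription factor genes Runx2 and Nfkb1 were not among the genes measured. Of 19 other transcription factors known to act on these promoters, 7, 11 and 11 were higher, with medians of -0.03, 0.15 and 0.02. Without the set block 0 were called, with 0, 1 and 1 at an unadjusted p under 0.05. With it Vdr, the vitamin D receptor, was called lower after weaning than in lactation. Its means were 8.40 ± 0.08 and 7.41 ± 0.19, a difference of -0.99 (1.98-fold lower, SE 0.25, adjusted p = 0.195; 0.0370 with the set block), and it was -1.05, -0.81 and -1.10 in the sets.

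The signal gene Pthlh was not among the genes measured. Of 13 other genes for hormone and cytokine signals that induce Mmp13 in bone cells, or for receptors of such signals, 7, 9 and 11 were higher. Their medians were 0.02, 0.04 and 0.18. None was called with or without the set block, and 0, 1 and 2 had an unadjusted p under 0.05. Il6, an inflammatory cytokine, went from 8.66 ± 0.12 in lactation to 9.86 ± 0.26 after weaning, a difference of 1.20 (2.29-fold, SE 0.33, adjusted p = 0.254; 0.0836 with the set block). Osm, the gene for oncostatin M, was 0.83 higher in that comparison (SE 0.40, adjusted p = 1). Tnfsf11, the gene for the osteoclast factor RANKL, was 0.61 higher after weaning than in virgin mice (SE 0.26, adjusted p = 1). Mmp13 differed by -1.35 in the comparison in which Il6 and Osm had a higher mean. A link between these differences was not tested.

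The matrix substrates, 15 genes measured, had medians of 0.23, 0.12 and 0.24, against 0.01, 0.00 and 0.00 over all genes. Ties draw the all-gene medians toward 0. Within sets 1, 2 and 3 the substrate median was 0.42, 0.10 and -0.04 for lactation minus virgin. It was -0.04, 0.19 and 0.07 for post-lactation minus lactation, and 0.60, 0.56 and -0.20 for post-lactation minus virgin. None of the 15 genes was called with or without the set block, and 1, 0 and 2 had an unadjusted p under 0.05. Col5a1, a minor fibrillar collagen, was 0.96 higher in lactation than in virgin mice (1.95-fold, SE 0.21, adjusted p = 0.950; 0.105 with the set block), and Col1a1, the main collagen of bone, 0.63 higher (1.55-fold, SE 0.29, adjusted p = 1). Ibsp, bone sialoprotein, was 0.70 higher with 0.10 in set 2. Col3a1, a collagen of soft connective tissue, was 1.01 higher after weaning than in virgin mice (SE 0.34, adjusted p = 1), with 1.62, 1.02 and 0.40 in the sets.

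The 10 other bone resorption genes, several of them reported by this study, had medians of 0.89, -0.95 and 0.20. All 10 were higher in lactation than in virgin mice and all 10 lower after weaning than in lactation. In the first comparison 0 were called, with or without the set block, and 6 had an unadjusted p under 0.05. In the second only Car2, a carbonic anhydrase that red cells also hold, passed without the block (-3.69, adjusted p = 0.000460), and 6 of the 10 passed with it. Acp5, the tartrate-resistant acid phosphatase of osteoclasts, was 1.74 higher in lactation than in virgin mice (SE 0.48) and differed by -1.76 after weaning (adjusted p = 0.248; 0.0119 with the set block). Ctsk, the collagen-cutting cathepsin of osteoclasts, was 1.83 higher (SE 0.37) and then differed by -1.32 (adjusted p = 0.298; 0.0297 with the set block). Mmp13 and Timp1, at 0.88 and 1.03 in the first comparison and -1.35 and -1.52 in the second, had the same signs as all 10 of these genes.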

How the data were processed

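Expression was measured on 9 Affymetrix arrays. The deposited table holds RMA values on the log2 scale for 45101 probe sets (RMA per the submitters' processing notes); its version is not given in the sources used. No value was missing. Probe sets naming 1 gene (34958) were used, and the brightest over 9 arrays stood for each of 18194 genes (array platform annotation; positions from RefSeq). limma 3.58.1 in R 4.3.3 (lmFit, eBayes, group means, all 9 arrays) compared groups, with Benjamini-Hochberg adjusted p under 0.05 as a call, and was tested on simulated data. Precision is limited by 3 arrays per group. Alternatives were the array set or replicate number as a block, array medians, quantile normalization, mean of probe sets, a mean-variance trend, a dim filter, the 2 groups alone, and leaving out arrays. Array sets were inferred from exactly equal values. The members and lists were chosen with earlier results of these data known. Genes outside the 10 whose differences are given were taken from those called, with or without the set block, or with the largest non-overlapping differences in their list, and nearest genes by rank. Not every gene that was called is named.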

Additional observations from a re-analysis of the deposited data

How the results depend on the processing

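Differences are log2, named as the first group minus the second. The replicate numbers did not pair the samples: same-numbered arrays correlated from -0.413 to 0.670 over 9 pairs, and arrays of 1 set from 0.468 to 0.734. With the replicate number as a block, 0, 118 and 33 genes were called in lactation minus virgin, post-lactation minus lactation and post-lactation minus virgin, against 0, 129 and 32 without it, and it changed no call among the 30 results of the 10 genes. With the array set as a block the counts were 4, 642 and 82, and 2 of the 10 genes were called after weaning against lactation (0 without it). With array medians subtracted 1 gene was called in lactation minus virgin, and 184 genes after weaning against lactation, 1 of them among the 10 (Timp1). Quantile normalization gave 1 and 200 genes in those comparisons. Without array set 1, 0 genes were called in either post-lactation comparison. The 6 arrays compared, a trend and the dim filter changed no call or direction of the 10 genes; the dim filter left out Mmp3.

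For post-lactation minus lactation, Mmp14 became 0.0070 and Timp2 0.011 under quantile normalization, and Timp2 became 0.12 with the mean of probe sets. Without array set 1, lactation minus virgin became -0.16 for Mmp14 and -0.094 for Timp2, and post-lactation minus virgin -0.27 and -0.13. The cause was not tested. Leaving out each array in turn gave 0 genes called in lactation minus virgin, 76 to 138 in post-lactation minus lactation and 13 to 34 in post-lactation minus virgin, and 0 to 1 of the 10 genes in the second (0 to 2 with the set block). The same setting reversed 31 of 270 results. For lactation minus virgin the ranges were -0.10 to 0.34 (Mmp2), -0.45 to 0.33 (Mmp3), -0.70 to 0.024 (Mmp8), -0.47 to 0.51 (Mmp14), -0.27 to 0.66 (Timp2) and -0.62 to 0.072 (Timp3). For post-lactation minus lactation they were -0.33 to 0.42 (Mmp3), -0.21 to 0.081 (Mmp9), -0.33 to 0.20 (Mmp14) and -0.17 to 0.14 (Timp2). For post-lactation minus virgin they were -0.39 to 0.36 (Mmp3), -0.93 to 0.10 (Mmp13), -0.49 to 0.49 (Mmp14), -0.24 to 0.50 (Mmp16), -0.27 to 0.66 (Timp2) and -0.087 to 0.45 (Timp3). Without a change of sign, 1 array also moved Mmp2 in post-lactation minus lactation (0.058 to 0.50) and in post-lactation minus virgin (0.20 to 0.54), and Timp1 in post-lactation minus virgin (-0.87 to -0.032). The 3 arrays per group limit all of these values, and dim probe sets such as that of Mmp3 carry little signal.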
